A study of Mus musculus with 15 samples.

Results

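The deletion of Lilrb4a was read as one effect across both amyloid states: 7 thalamic libraries without the gene (groups 5ELKO and ELKO) were compared with 8 libraries that keep it (5EL and EL), with the presence of 5xFAD as a second factor. The members are the genes that moved the same way with and without 5xFAD. A gene counted as moved in both states when its nominal p in the pooled fit was under 0.05 and its group means differed by at least 0.1 (log2) in the same direction in 5ELKO against 5EL and in ELKO against EL. These criteria held for 79 of the 15805 genes tested, of which 52 were higher and 27 lower without Lilrb4a, and all 15 libraries of the series entered the fit. Since the criteria use the pooled difference and both state differences, the values of the members are a description and their shared sign is no independent evidence.

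The series holds bulk RNA-seq of the thalamus of 4.5-month-old mice that are all labelled as homozygous for a human APOE4 knock-in, a label that the mouse Apoe level of 1 library goes against. The 5EL mice (n = 5) carry 5xFAD and have both copies of Lilrb4a, and the 5ELKO mice (n = 4) carry 5xFAD and lack Lilrb4a. The EL mice (n = 3) and the ELKO mice (n = 3) are the counterparts without 5xFAD, with and without Lilrb4a. The methods describe a knockout line and name no cell-type restriction, and the 5xFAD transgenes, which carry familial Alzheimer's disease mutations, are driven by the neuronal Thy1 promoter. Mice were perfused with buffer before the right hemisphere was dissected.

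Lilrb4a encodes an inhibitory receptor of myeloid cells, microglia among them, and is the mouse counterpart of human LILRB4. Its cytoplasmic tail holds immunoreceptor tyrosine-based inhibitory motifs that recruit SHP phosphatases, which dampen activating signals such as those that pass through Trem2, Tyrobp and Syk. Apolipoprotein E is among the ligands described for the human receptor. In thalamic tissue such a receptor is carried by a small share of the cells. Fewer cells of a type and less RNA per cell cannot be told apart in bulk tissue.

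The targeted gene was examined first. Lilrb4a is a plus-strand gene of chromosome 10 (GRCm38, 51490956 to 51496611). The deposited values are on a log2 scale, on which a step of 1 is a doubling, and those of Lilrb4a were under the level required for testing. The 5EL libraries lay at 2.66, 2.40, 2.48, 2.63 and 2.48, and the EL libraries at 2.34, 2.42 and 2.38. All 7 libraries labelled as lacking the gene lay at 2.33. None of the 7 overlapped with the 8 intact libraries, and EL replicate 1 was the intact library closest to them. The pooled difference was -0.14 (standard error, SE, 0.038; limma p = 0.00214; exact permutation test over libraries within each state, two-sided, p = 0.00198), with -0.20 in the 5xFAD state and -0.05 without 5xFAD. Lilr4b, a close relative at levels of 0.73 to 0.86, differed by -0.04 (exact permutation p = 0.0476) and may share reads with Lilrb4a.

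Several libraries stood apart, for the most part in ways that the groups do not explain. EL replicate 3 and ELKO replicate 3 had the lowest mean level of 10 ependymal and motile cilia genes, 5.89 and 5.93, and no other library was under 6.12. Mean levels of choroid plexus genes were 8.46 in 5EL replicate 1 and 8.86 in ELKO replicate 2, against 6.20 to 6.81 elsewhere. Hepatocyte genes averaged 5.45 in EL replicate 1 and 5.13 to 5.40 in the 5ELKO libraries, against 4.86 to 5.16 in the remaining ones. In the 5xFAD state this level followed the groups, with 5ELKO above 5EL by 0.28 on average and some overlap. Without 5xFAD the difference was -0.12. The library labelled ELKO replicate 1 held mouse Apoe at 10.90, whereas the other 14 lay between 5.92 and 6.37, so its level goes against the labelled APOE4 genotype. Markers of thalamic relay neurons, such as Tcf7l2 and Slc17a6, averaged between 12.10 and 12.53 in all 15 libraries, and Ddx3y at 10.34 to 10.68 with Xist at no more than 0.31 gave the male pattern in each. The part of these differences in the results that follow was not tested beyond the alternative fits named beside them.

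No gene passed an adjusted p of 0.05 in the pooled fit (limma, Benjamini-Hochberg adjustment; smallest adjusted p 0.99996). At a nominal p under 0.05 there were 274 genes, 1.73% of those tested, where a threshold of 0.05 admits 5% of genes that do not differ. Of these, 160 were higher (1.01%) and 114 lower (0.721%) without Lilrb4a. Only 4 of the higher (0.0253%) and 6 of the lower genes (0.0380%) also differed by more than 1.2-fold, which is 0.26 in log2. The SE of a pooled difference had a median of 0.0504 over genes, and for 14470 genes (91.6%) the 95% confidence interval lay within a 1.2-fold change in either direction.

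The genes moved in both states made up 0.500% of those tested, 0.329% higher and 0.171% lower. Their pooled differences had a median of 0.15 among the 52 higher genes, with sizes from 0.106 to 0.340, and of -0.17 among the 27 lower genes, with sizes from 0.111 to 0.680. Just inside the limit of 0.1 were Heatr3, Relt and Prdm15, with smaller state differences of 0.1003, 0.101 and 0.102 in size. Just outside it were Lrrc1, Slc40a1 and Emilin1 at 0.0994, 0.0996 and 0.0997. Of the 79 genes, 8 have predicted names only (5 higher and 3 lower). The difference itself differed between the states for 0 of the 52 higher genes and 1 of the 27 lower genes at a nominal interaction p under 0.05, which 2.74% of all genes tested reached. The criteria ask for a shared direction in both states and so select against such an interaction. These counts therefore follow largely from the criteria and are no evidence of a shared effect.

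Individual libraries weighed on this set. EL replicate 3 was the lowest of the 15 libraries in 31 of the 52 higher genes and the highest in 15 of the 27 lower genes. Over all genes tested it was the lowest library for 23.9% and the highest for 21.2%, more often than any other library. Without EL replicate 3 there were 31 genes higher and 24 lower in both states, and 33 of the 79 were retained. Leaving out EL replicate 1 gave 328 higher and 247 lower genes at a nominal p under 0.05, with 125 and 55 in both states. Leaving out ELKO replicate 3 gave 329 and 186, with 145 and 50 in both states, and leaving out 5ELKO replicate 3 lowered the number of higher genes to 101. Other single libraries moved the count in both states more than 1.5 times: it was 97 higher and 44 lower without 5EL replicate 2, 83 higher without 5ELKO replicate 2 and 33 higher without ELKO replicate 2. The lower genes numbered 51 without 5EL replicate 3, 43 without 5ELKO replicate 1 and 41 without 5ELKO replicate 4. Without the library with high Apoe, ELKO replicate 1, the counts were 53 and 26, but only 46 of the 79 were retained. With EL and ELKO libraries paired by their replicate number as a block, 361 genes were higher and 247 lower, 108 and 44 in both states with all 79 retained, and again 0 genes passed the adjusted threshold.

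**Figure D1:**
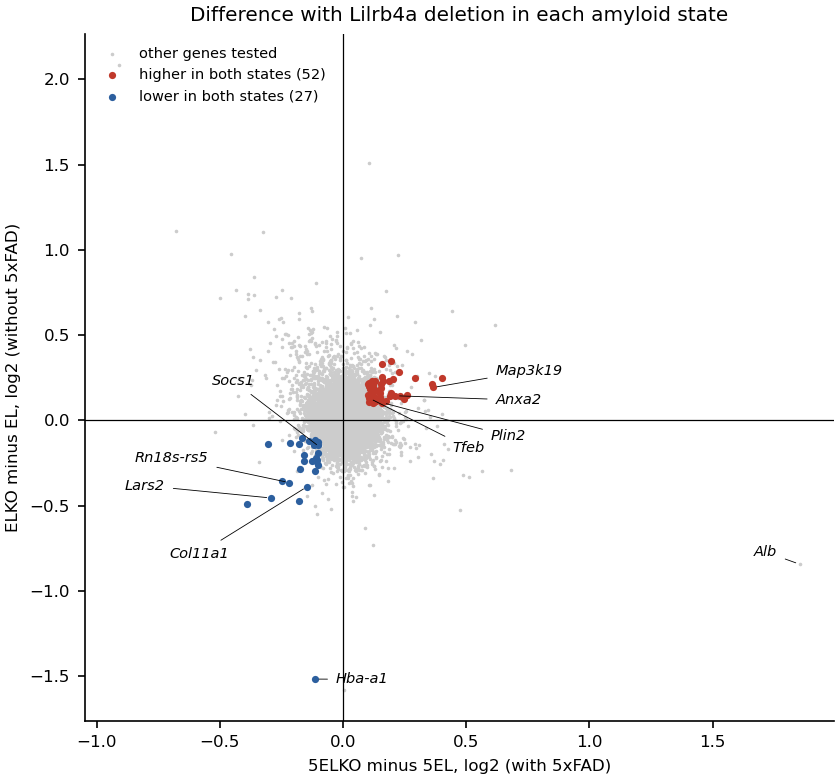
Difference of group means with Lilrb4a deletion in each amyloid state, one point per gene tested (15805 genes), with 5ELKO minus 5EL on the horizontal axis and ELKO minus EL on the vertical axis, both in log2. Red points are the 52 genes higher and blue points the 27 genes lower in both states; most genes lie near 0 on both axes, Hba-a1 lies at -0.11 and -1.52, and Alb, no member, at 1.85 and -0.84.

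The states share no library, so each can be read against the other. The difference had the same sign in both states for 8070 of the 15805 genes (51.1%), and across genes, which are not independent replicates, the 2 state differences correlated at r = -0.108. Fitted on its own, the 5xFAD state had 397 genes at a nominal p under 0.05 (2.51%), and 166 of these (41.8%) had the same sign in the other state. At an adjusted p under 0.05 it had 3 genes (0.0190%; limma, Benjamini-Hochberg), Alb, Bhmt and Serpina3k, which hepatocytes express and which differed by 1.85, 0.38 and 0.68 with 5xFAD and by -0.84, -0.03 and -0.29 without it, where 0 genes passed. The state without 5xFAD had 175 such genes at the nominal threshold (1.11%), of which 66 (37.7%) had the same sign with 5xFAD. Both separate fits called 7 genes (0.0443%), and 2 of them (0.0127%) in the same direction, Prlhr and Tnfrsf25. The other 5, Gm19426, Fzd10, Kdm4d, Stra6 and Sfrp5, were called in opposite directions. Under the pair block the number of genes called alike in both fits was 17. Leaving out single libraries moved the 2 genes to 0 without EL replicate 3, 1 without 5EL replicate 4, 5EL replicate 5, 5ELKO replicate 1 or ELKO replicate 2, and 4 without 5EL replicate 1 or 5ELKO replicate 2. It was 5 without ELKO replicate 3, 7 without 5EL replicate 3 and 11 without EL replicate 1.

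Groups that did not overlap gave a similar picture. All 5ELKO libraries lay on one side of all 5EL libraries for 169 genes (1.07%), and all ELKO libraries on one side of all EL libraries for 726 genes (4.59%). The groups were apart in the same direction in both states for 2 genes, Tfeb and Psen2 (0.0127%), and in opposite directions for 3, Ifitm1, Ubl7 and Ifit1bl1 (0.0190%). For the same 2 genes, all 7 libraries without Lilrb4a lay above all 8 intact ones. Groups this small can lie apart when nothing differs. Of the 2520 arrangements of libraries within the states, a share of 0.000397 puts the deleted libraries above the intact ones in both. The 2 genes (0.0127%) were no more than that share. Psen2 and the trio with opposite directions fall outside the rule for named genes and were chosen after their values were seen.

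Tfeb encodes the transcription factor that drives genes of lysosome formation and autophagy. It lies on chromosome 17 from 47737030 to 47792419 on the plus strand. The 5EL libraries lay at 7.58, 7.60, 7.61, 7.56 and 7.50 and the 5ELKO libraries at 7.72, 7.68, 7.65 and 7.65. The EL libraries lay at 7.53, 7.62 and 7.60 and the ELKO libraries at 7.68, 7.76 and 7.69. Every library without Lilrb4a was above every intact one, though the gap between the nearest libraries was small. The pooled difference was 0.12 (SE 0.034; limma p = 0.00347; exact permutation p = 0.000397, the smallest these 2520 arrangements allow). The state differences were 0.11 in the 5xFAD state and 0.13 without it. The exact p follows from the complete order that sets Tfeb apart from the other genes, so it is no independent evidence. Tfeb stayed past the nominal threshold in every alternative fit, the weakest being that without 5EL replicate 1, EL replicate 1, ELKO replicate 1 and ELKO replicate 2 together, where the difference was 0.10.

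Psen2 encodes presenilin 2, the catalytic subunit of one form of gamma-secretase, the protease that releases amyloid-beta from its precursor. It lies on chromosome 1 from 180227004 to 180263438 on the minus strand. With 5xFAD its values were 8.51, 8.48, 8.53, 8.45 and 8.42 in 5EL and 8.55, 8.56, 8.60 and 8.60 in 5ELKO. Without 5xFAD they were 8.51, 8.51 and 8.47 in EL and 8.54, 8.54 and 8.55 in ELKO. The order was complete here too, but the difference was smaller at 0.08 (SE 0.031; limma p = 0.0266; exact permutation p = 0.000794), with 0.10 and 0.04 in the states. Here too the exact p follows from the order by which the gene was chosen. The difference without 5xFAD was under the limit of 0.1, so Psen2 is not among the 79. It missed the nominal threshold in 5 alternative fits, among them those without 5EL replicate 5, 5ELKO replicate 3 or 5ELKO replicate 4.

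The promoters of Tfeb and Psen2 are shown since these were the only genes of the 15805 whose libraries were fully ordered by the deletion, and that of Socs1 since it had the smallest p of the pooled fit among the named genes. Each is 250 bases before to 50 after a RefSeq start in GRCm38.p6, 5′ to 3′ on the gene's strand, in lower case with matches in capitals. The first start of Tfeb is at chr17:47736787-47737086 (plus strand), the second start of Psen2, inside the gene's span, at chr1:180245901-180246200 (minus strand), and the start of Socs1 at chr16:10785487-10785786 (minus strand).
Tfeb: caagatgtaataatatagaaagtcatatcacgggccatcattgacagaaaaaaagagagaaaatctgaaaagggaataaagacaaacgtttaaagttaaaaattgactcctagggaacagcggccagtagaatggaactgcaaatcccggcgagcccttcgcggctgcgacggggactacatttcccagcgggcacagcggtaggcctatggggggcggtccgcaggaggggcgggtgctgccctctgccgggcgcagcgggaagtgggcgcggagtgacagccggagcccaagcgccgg
Psen2: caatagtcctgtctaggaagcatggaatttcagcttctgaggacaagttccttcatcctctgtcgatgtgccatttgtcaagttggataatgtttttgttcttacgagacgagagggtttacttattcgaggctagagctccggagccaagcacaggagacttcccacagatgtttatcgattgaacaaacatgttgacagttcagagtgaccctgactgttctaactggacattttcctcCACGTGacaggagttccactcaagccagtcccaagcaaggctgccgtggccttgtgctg
Socs1: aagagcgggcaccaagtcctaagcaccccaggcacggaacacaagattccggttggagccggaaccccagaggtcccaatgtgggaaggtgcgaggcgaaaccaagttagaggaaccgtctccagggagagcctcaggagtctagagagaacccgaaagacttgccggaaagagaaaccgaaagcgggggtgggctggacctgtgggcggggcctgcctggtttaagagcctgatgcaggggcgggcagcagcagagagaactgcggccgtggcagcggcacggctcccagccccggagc
Both strands were searched for TTCNNNGAA (the STAT site, GAS), AGGTCA (the half-site of PPAR and other nuclear receptors) and CACGTG (the E-box, which also lies within the site that TFEB binds). The windows of Tfeb and Socs1 held none of these letters, and that of the second Psen2 start, shown for this match, held CACGTG 9 bases before the start. The window of the first Psen2 start (chr1:180256251-180256550, minus strand) held none, as did those of the other two Tfeb starts. Over the 14716 promoters of 11470 tested genes, 6.75% held TTCNNNGAA, 12.6% AGGTCA and 9.38% CACGTG. Among the 58 promoters found for 39 of the 52 higher genes the shares were 5.17%, 8.62% and 6.9%, and among the 23 promoters for 21 of the 27 lower genes 8.7%, 21.7% and 8.7%. The 21.7% rests on 5 promoters, and a match describes the letters only.

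**Figure D2:**
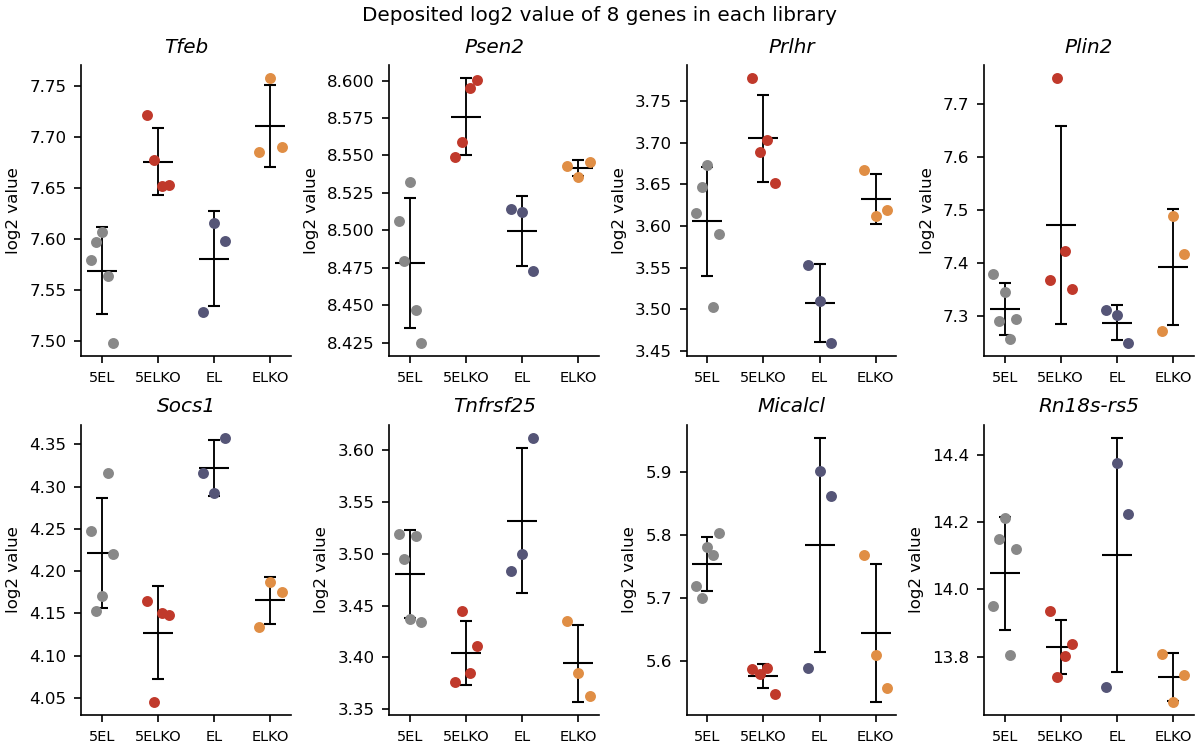
Deposited log2 value of 8 genes in each of the 15 libraries, by group (5EL, 5ELKO, EL, ELKO), one point per library with the group mean and SD as lines; each panel has its own axis, which does not start at 0. In Tfeb and Psen2 the deleted groups lie wholly above the intact groups in both states, in Socs1 and Tnfrsf25 they lie lower with some overlap, and in Rn18s-rs5 the highest values are all from intact libraries.

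Genes with roles near these 2 were read against the 1.73% of all genes that passed the nominal threshold. Of 33 lysosome and autophagy genes, a list drawn up after the values of Tfeb were seen, 1 passed the nominal threshold, Wipi1 at 0.10 (SE 0.042; exact permutation p = 0.0194), and the median difference was -0.00, against 0.00 over all genes. Lamp1, a lysosomal membrane protein, differed by -0.01, Ctsd, a lysosomal protease, by -0.02, and Mcoln1, a lysosomal calcium channel, by -0.00. Of 10 genes of gamma-secretase and amyloid precursor processing, likewise listed afterwards, the one past the threshold was Psen2 itself, whose values had been seen. The median of these 10 was 0.02. With 1 call in each list, neither share can be set apart from that over all genes. App, the amyloid precursor itself, differed by 0.02 (SE 0.049).

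Prlhr, the receptor of prolactin-releasing hormone, and Tnfrsf25, a death-domain receptor of the tumour necrosis factor family, were the genes called alike in the separate fits. Prlhr was at 3.62, 3.65, 3.67, 3.50 and 3.59 in 5EL and at 3.78, 3.69, 3.70 and 3.65 in 5ELKO. In EL it was at 3.55, 3.51 and 3.46 and in ELKO at 3.67, 3.61 and 3.62. All ELKO libraries were above all EL libraries, whereas 5ELKO and 5EL overlapped, and the pooled difference was 0.11 (SE 0.028; limma p = 0.00135; exact permutation p = 0.00159). Tnfrsf25 was at 3.52, 3.49, 3.44, 3.52 and 3.43 in 5EL and at 3.38, 3.44, 3.38 and 3.41 in 5ELKO. In EL it was at 3.48, 3.50 and 3.61 and in ELKO at 3.44, 3.38 and 3.36. It was lower by -0.10 (SE 0.026; limma p = 0.00128; exact permutation p = 0.00238), without overlap in the state without 5xFAD and with overlap in the other. Both lay just above the level required for testing, where the deposited scale draws values together, and neither is among the 79, as a state difference fell short of 0.1.

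Among the 52 higher genes with the smallest p were Gca, Rhpn2, Zfp831, Anxa2, Cflar, Spsb1 and Map3k19. Gca, the calcium-binding protein grancalcin of phagocytes, was higher by 0.14 (SE 0.045; exact permutation p = 0.00556), with 0.15 in the 5xFAD state and 0.14 without. Its 5ELKO libraries lay between 7.82 and 7.87, and the highest 5EL library, at 7.82, overlapped with them. Cflar, an inhibitor of apoptosis started by death receptors, was higher by 0.15 (SE 0.051; exact permutation p = 0.00714), and all 4 of the 5ELKO libraries, at 8.83 to 8.89, lay above the 5EL libraries at 8.61 to 8.80. Anxa2, a membrane-binding annexin, differed by 0.19 (SE 0.062; exact permutation p = 0.0163), with 0.21 and 0.14 in the states. Rhpn2 differed by 0.15 (SE 0.049; exact permutation p = 0.00635). Spsb1, a SOCS-box adaptor of ubiquitin ligases, differed by 0.17 (SE 0.058; exact permutation p = 0.0175), and its 3 ELKO libraries at 8.29 to 8.50 lay above the EL libraries at 8.15 to 8.23. Zfp831 and Zfp493, both zinc finger genes, differed by 0.20 and 0.12, and Erich2 by 0.14. Anxa2, Rhpn2 and Erich2 lost the nominal threshold without 5EL replicate 1, EL replicate 1 and ELKO replicates 1 and 2 together, at 0.15, 0.09 and 0.08.

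Further examples were picked from the 52 higher genes after their values were seen. Osbpl8, a lipid transfer protein of the endoplasmic reticulum, differed by 0.12 (SE 0.047; exact permutation p = 0.0163). Fnip2, a folliculin-interacting protein of nutrient signalling at lysosomes, differed by 0.14 (SE 0.056; exact permutation p = 0.0313). Myo1e, a membrane-bound myosin, differed by 0.17 (SE 0.058; exact permutation p = 0.00952), Gsn, the actin-severing gelsolin, by 0.14 (SE 0.059) and Tiam2, a Rac activator, by 0.25 (SE 0.088). Bag3, a co-chaperone of selective autophagy, differed by 0.15 (SE 0.057; exact permutation p = 0.0270). The lowest of the 15 libraries was EL replicate 3 in Myo1e (8.37), Tiam2 (7.15), Osbpl8 (10.64), Fnip2 (8.36) and Bag3 (7.19), but not in Gsn. Fnip2 missed the nominal threshold without EL replicate 3, 5EL replicate 4 or ELKO replicate 1, and Osbpl8 missed it without 5ELKO replicate 2 (0.10). With the mean level of hepatocyte genes as a covariate both missed it, Fnip2 at 0.12 and Osbpl8 at 0.10. Gsn missed it without 5EL replicate 3, 5ELKO replicate 3, 5ELKO replicate 4 or EL replicate 1, at 0.11 to 0.13, and Tiam2 without the 4 libraries that stood apart together, at 0.16. Gsn was 0.10 without those 4, and Bag3 missed the threshold without 5EL replicate 1 and ELKO replicate 2 together, at 0.13.

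The largest higher differences were those of Six3os1 at 0.34, Tbr1 at 0.30, Map3k19 at 0.30, Eepd1 at 0.27 and Frem3 at 0.26. Tbr1 is a transcription factor of cortical excitatory neurons, and Six3os1 is transcribed opposite Six3, a gene of forebrain inhibitory neurons. The counting did not use strand, so reads of such overlapping genes cannot be told apart. Tbr1 lay at 5.91 to 7.03 in 5EL, with replicate 2 the highest, and at 6.34 to 6.78 in 5ELKO, so the groups overlapped (SE 0.139; exact permutation p = 0.0794). Six3os1 ran from 6.24 to 7.22 in 5EL and from 6.91 to 7.31 in 5ELKO (SE 0.160; exact permutation p = 0.0881). Drd1, the dopamine receptor of direct-pathway striatal neurons, was higher by 0.19 (SE 0.079; exact permutation p = 0.0401), with its lowest library again EL replicate 3, at 5.85. Prl, the pituitary hormone prolactin, was higher by 0.20 (SE 0.087; exact permutation p = 0.0575), and most libraries of all groups lay near the level required for testing. Leaving out 1 library at a time ended the call for Tbr1 and Six3os1 in 11 of 15 fits each, for Frem3 in 9 and for Prl in 7, with differences of 0.26 to 0.41, 0.26 to 0.43, 0.15 to 0.30 and 0.15 to 0.26. Drd1 lost its call without 5EL replicate 4, 5ELKO replicate 3, EL replicate 3 or ELKO replicate 1, and ran from 0.13 to 0.24. Its call also ended with the mean level of hepatocyte genes as a covariate (0.16). The same held without 5EL replicate 1 and ELKO replicate 2 together (0.17). Without the 4 libraries together Six3os1 was 0.17 and Eepd1 0.15, and both missed the threshold. For the lists that hold these markers the median was 0.01 over 12 striatal genes (4 of the same sign in both states), 0.01 over 11 genes of cortex and hippocampus (5 of the same sign) and 0.09 over 14 of hypothalamus and pituitary (10 of the same sign), with 1 gene of each past the threshold. Over all genes 1.73% passed it.

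Ependymal genes had differences of one sign that did not pass the test in the fit without a block. All 10 listed genes of ependyma and motile cilia were higher without Lilrb4a in both states. Of the 10, 0 passed the nominal threshold, which 1.73% of all genes did. Their median difference was 0.17 (0.13 with and 0.20 without 5xFAD), against 0.00 over all genes. Foxj1, the transcription factor that specifies motile cilia, differed by 0.32 (SE 0.171; exact permutation p = 0.136), Ak7 by 0.32 (SE 0.218) and Hydin, a part of the ciliary axoneme, by 0.24 (SE 0.169). The genes of the list share cells and therefore libraries with high or low levels, and with the EL and ELKO pairs as a block 2 of 10 passed, Foxj1 and Ak7 (3.85% of all genes did so under that block, 0 at an adjusted p under 0.05). The median was 0.09 without EL replicate 3 or without ELKO replicate 2, and 0.03 without the 4 libraries that stood apart. Among the 79, Map3k19 (0.30; SE 0.099), Cfap45 (0.18), Lrrc36 (0.22), Map10 (0.16) and Sspo (0.23), which encodes SCO-spondin of the subcommissural organ, were singled out after their values were seen. Map3k19 lay at 6.94, 7.02, 6.92, 6.61 and 6.88 in 5EL and at 7.18, 7.39, 7.25 and 7.14 in 5ELKO, without overlap. In EL it lay at 7.07, 6.78 and 6.58 and in ELKO at 7.17, 7.25 and 6.60, where EL replicate 3 and ELKO replicate 3 were the lowest of their groups. Cfap45, Lrrc36 and Map10 missed the nominal threshold in most or many of the alternative fits (19, 20 and 11 of 28), and leaving out 1 library at a time ended the call in 9, 9 and 8 of 15 fits. Sspo missed it without 5EL replicate 1 and ELKO replicate 2 (0.14) and without the 4 libraries (0.15).

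**Figure D3:**
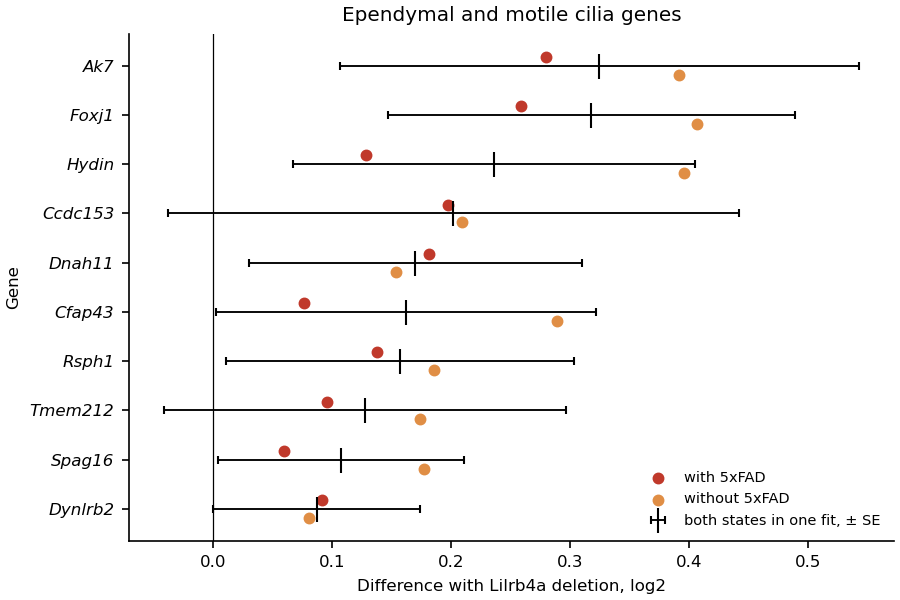
Difference with Lilrb4a deletion for 10 ependymal and motile cilia genes, in log2 on the horizontal axis: the bar is the pooled difference with its SE, red points are 5ELKO minus 5EL and orange points ELKO minus EL. Every point lies to the right of 0, from Ak7 at 0.32 to Dynlrb2 at 0.09 in the pooled fit, and the SE reaches or crosses 0 in Ccdc153, Tmem212 and Dynlrb2.

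Socs1, which encodes an inhibitor of JAK-STAT cytokine signalling, lies on chromosome 16 from 10782240 to 10785536 on the minus strand. It was at 4.25, 4.15, 4.17, 4.32 and 4.22 in 5EL and at 4.16, 4.05, 4.15 and 4.15 in 5ELKO. In EL it was at 4.32, 4.29 and 4.36 and in ELKO at 4.13, 4.19 and 4.18. The ELKO libraries lay below all EL libraries, and the 5ELKO libraries overlapped with the lower 5EL libraries. The pooled difference was -0.12 (SE 0.030; limma p = 0.0011; exact permutation p = 0.00278), with -0.09 in the 5xFAD state and -0.16 without it. Socs1 remained past the nominal threshold in all alternative fits, where its difference ran from -0.13 to -0.10. The difference in the 5xFAD state was just under the limit, so Socs1 is not among the 79.

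Named lower genes included Micalcl, Col11a1, Erf, Nab2, Slc18a2, Trpv6 and Mrps9. Micalcl was at 5.72, 5.70, 5.78, 5.77 and 5.80 in 5EL and at 5.59, 5.58, 5.59 and 5.55 in 5ELKO, so the 5xFAD groups were apart. In EL it was at 5.59, 5.90 and 5.86 and in ELKO at 5.77, 5.61 and 5.56, with EL replicate 1 among the lowest (pooled difference -0.16; SE 0.047; exact permutation p = 0.00754). Col11a1, a fibrillar collagen chain, differed by -0.24 (SE 0.073; exact permutation p = 0.0111), with -0.15 in the 5xFAD state and -0.39 without it, and without the 4 libraries together it was -0.16 and missed the nominal threshold. Erf, an ETS-family repressor downstream of ERK, differed by -0.12 (SE 0.041; limma p = 0.0112; exact permutation p = 0.00278). Nab2, a corepressor of Egr transcription factors, differed by -0.18 (SE 0.068), and Slc18a2, the vesicular monoamine transporter, by -0.18 (SE 0.064; exact permutation p = 0.0246). Trpv6, an epithelial calcium channel, differed by -0.14 (SE 0.052), Heatr3 by -0.11 (SE 0.040) and Mrps9, a protein of the mitochondrial ribosome, by -0.22 (SE 0.073). Erf, Nab2, Trpv6 and Heatr3 lost the nominal threshold without the 4 libraries together.

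Among the lower genes with large differences were Hba-a1, Gm23935, Lars2, Slco2a1, Fzd5 and Rn18s-rs5. Hba-a1, an alpha-globin gene of red blood cells, was lower by -0.68 (SE 0.299; exact permutation p = 0.0389), with -0.11 in the 5xFAD state and -1.52 without it, and this was the gene whose state differences differed (at a nominal interaction p of 0.0156). EL replicates 2 and 3 held it at 6.96 and 8.45, whereas the other 13 libraries lay between 5.43 and 6.29, and without EL replicate 3 the difference was -0.37 and still past the nominal threshold. It missed that threshold without EL replicate 2 or any 1 of the 3 ELKO replicates, at -0.64 to -0.57. Of 4 erythroid genes tested, Hba-a1 was the one that passed, and Hbb-bs, a beta-globin gene, differed by -0.63 (SE 0.306) and passed with the EL and ELKO pairs as a block. Over all genes 1.73% passed without and 3.85% with that block. Slco2a1, a prostaglandin transporter, differed by -0.30 (SE 0.130) and Fzd5, a Wnt receptor, by -0.29 (SE 0.124). Each of these 2 missed the nominal threshold in 11 of 28 alternative fits, 7 for Slco2a1 and 8 for Fzd5 being fits that left out 1 library.

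A trio of lower genes moved through the same libraries. Gm23935 was added to it after its values were seen. Gm15564, looked at likewise, did not pass the nominal threshold in the pooled fit. It passed in 7 of 27 alternative fits, where its difference ran from -0.16 to -0.09. Rn18s-rs5, an 18S ribosomal RNA related sequence, lay at 13.95, 14.15, 14.21, 13.80 and 14.12 in 5EL and at 13.93, 13.74, 13.80 and 13.84 in 5ELKO. In EL it lay at 13.71, 14.38 and 14.22 and in ELKO at 13.81, 13.66 and 13.75. Its 5 highest libraries, all intact, were 5EL replicates 2, 3 and 5 and EL replicates 2 and 3, and the same 5 libraries were the highest in Lars2 and in Gm23935. Rn18s-rs5 was lower by -0.28 (SE 0.086; limma p = 0.00515; exact permutation p = 0.0159), Lars2, which encodes mitochondrial leucyl-tRNA synthetase, by -0.36 (SE 0.120; exact permutation p = 0.0282) and Gm23935 by -0.43 (SE 0.120; exact permutation p = 0.0115). EL replicate 1 was low in each, at 13.71, 11.79 and 11.84. All 3 passed the nominal threshold in every alternative fit. What else these 5 libraries share was not tested.

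In the unblocked fit no gene of the deleted receptor's own pathway passed the test, which 1.73% of all genes did (3.85% with the pair block). At such shares a list this short holds few calls or none. Of 17 tested genes of Lilrb4a signalling, 0 passed the nominal threshold (limma; 0 also at an adjusted p under 0.05), with a median difference of 0.01 and single differences from -0.06 to 0.09, and 1 passed with the EL and ELKO pairs as a block, Stat3. Ptpn6, the phosphatase SHP-1, differed by -0.06 (SE 0.057), Ptpn11, which encodes SHP-2, by 0.04 (SE 0.044), Syk by -0.02 (SE 0.048) and Trem2 by -0.03 (SE 0.136). Rela, the p65 subunit of NF-kB, differed by -0.01 (SE 0.035) and Stat3 by 0.09 (SE 0.050; limma p = 0.103; exact permutation p = 0.126). Of 14 NF-kB and JAK-STAT target genes, Socs1 was the one that passed, and the median was 0.01. Other inhibitors in that list had negative differences that did not pass, with Socs3 at -0.06 and Tnfaip3 at -0.08. These are transcript levels and say nothing of phosphorylation.

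No listed microglial gene passed the nominal threshold, which 1.73% of all genes did. At that share a list this short holds few calls or none. Of 13 homeostatic genes, 0 passed, with a median difference of -0.02, and P2ry12, a purinergic receptor, differed by -0.08 (SE 0.072), Tmem119 by -0.02 (SE 0.068) and Cx3cr1 by 0.01 (SE 0.060). Of 21 genes of disease-associated microglia, 0 passed, with a median of -0.01. Within that list Cst7 differed by -0.04 (SE 0.188), Itgax by 0.03 (SE 0.150) and Clec7a by 0.01 (SE 0.108). The SE of each of these plaque-responsive genes was above the 95th percentile over all genes, 0.105, and the 95% interval of Cst7 ran from -0.43 to 0.36.

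Of 38 genes around the PPAR receptors, which are nuclear receptors for fatty acids, Plin2 passed the nominal threshold, and the median was 0.02. With the EL and ELKO pairs as a block 4 passed, Plin2 and Rxra (0.10) higher and Fabp5 (-0.12) and Nr1h2 (-0.07) lower. Over all genes 1.73% passed without and 3.85% with that block. Plin2, which coats lipid droplets, lies on chromosome 4 from 86648386 to 86670060 on the minus strand. It was at 7.38, 7.29, 7.35, 7.26 and 7.29 in 5EL and at 7.37, 7.75, 7.42 and 7.35 in 5ELKO. In EL it was at 7.31, 7.30 and 7.25 and in ELKO at 7.27, 7.49 and 7.42. The groups overlapped in both states, and 5ELKO replicate 2 was far above the rest. The pooled difference was 0.14 (SE 0.057; limma p = 0.0284; exact permutation p = 0.00952), and 0.08 without 5ELKO replicate 2, past the threshold no longer. Leaving out 5EL replicate 4 or ELKO replicate 2 also ended the call. So did leaving out 5EL replicate 1 and ELKO replicate 2 together (0.13), or the mean level of hepatocyte genes as a covariate (0.13). A list of 16 genes that were also followed by other readouts held Plin2 as its one member of the 79.

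The other 15 of those genes did not pass. Pparg itself differed by 0.00 (SE 0.033; 95% interval -0.07 to 0.07), Abca1, a cholesterol exporter, by 0.11 (SE 0.093; interval -0.09 to 0.31) and Lpl, lipoprotein lipase, by 0.10 (SE 0.101). Tgfb1 differed by 0.01 (SE 0.067), Cd36, a fatty acid transporter, by 0.03 (SE 0.044) and Fabp7, a brain fatty acid-binding protein, by 0.08 (SE 0.122). For Apoa1, Apoa2, Cyp2e1, Pck1 and Arg1, genes that hepatocytes express strongly, the difference was positive with 5xFAD and negative without it. Apoa1 differed by 0.37 and -0.24 in the states, Apoa2 by 0.27 and -0.24, Cyp2e1 by 0.37 and -0.34, Pck1 by 0.21 and -0.28 and Arg1 by 0.12 and -0.10. Limma interaction p-values were 0.0469, 0.0173, 0.0203, 0.0338 and 0.0448 (adjusted p of at least 0.05 in all 5), and in the state without 5xFAD the highest library of each was EL replicate 1.

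Across the 30 lists of cell types and pathways, 430 genes were tested and 10 passed the nominal threshold (2.33%, against 1.73% over all genes), and 5 of them moved in both states (1.16%, against 0.500%). With the EL and ELKO pairs as a block 24 of the 430 passed (5.58%, against 3.85% over all genes). The 10 without a block were Socs1, Plin2, C3, Cd44, Prl, Drd1, Tbr1, Hba-a1, Hp and Bhmt. C3, the central complement component, was higher by 0.26 (SE 0.105; exact permutation p = 0.0421), with 0.40 in the 5xFAD state and 0.04 without it. Cd44, a hyaluronan receptor of reactive astrocytes, was lower by -0.22, with -0.06 and -0.46, and EL replicate 3 was its highest library at 7.98. Hp and Bhmt, which hepatocytes express, were higher by 0.22 and 0.21, with 0.35 and 0.38 in the 5xFAD state and 0.02 and -0.03 without it. C3 missed the nominal threshold without 5EL replicate 3, 5ELKO replicate 1 or 5ELKO replicate 3, with a lowest value of 0.17, and Hp without 5ELKO replicate 1 (0.16) or without 5EL replicate 1 and ELKO replicate 2 together (0.18). With the hepatocyte score as a covariate C3 was 0.17 and missed it, and Hp was 0.14. C3 also missed it without 5EL replicate 1 and ELKO replicate 2 (0.24). In their lists, 7 of 16 complement and antigen presentation genes were positive, with a median of -0.01, and 9 of 12 reactive astrocyte genes, with a median of 0.05. Cd44 missed it in 7 of the 15 fits that left out 1 library, and without EL replicate 3 it was -0.12.

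Lists with large differences in one state often had the opposite sign in the other. The median of 12 choroid plexus genes was -0.34 with 5xFAD and 0.73 without, and 0 of 12 had the same sign in both states. Among 33 hepatocyte genes 2 had the same sign, with medians of 0.25 and -0.15, and among 14 habenula genes 1, with medians of -0.19 and 0.38. Thalamic relay neuron genes had medians of 0.04 and -0.18. Inhibitory neuron genes had the largest positive pooled median, 0.30 (0.31 and 0.45 in the states), with 8 of 11 of the same sign. None of the 11 passed the threshold in the fit without a block (1.73% of all genes did). With the EL and ELKO pairs as a block, 4 of 11 passed it (Gad1, Gad2, Sst and Six3), against 3.85% of all genes. The mean level of the list was higher in ELKO than in EL in all 3 pairs. That pairing was taken from correlations in these same data, and no label gives it. Gad1 and Gad2, the enzymes of GABA synthesis, differed by 0.59 (SE 0.379 without and 0.261 with the pair block) and 0.52 (SE 0.321 and 0.222), and the mean level of the list was 7.65 in 5EL replicate 1, 7.19 in EL replicate 3 and 7.73 in ELKO replicate 3, against 8.07 to 8.89 elsewhere.

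**Figure D4:**
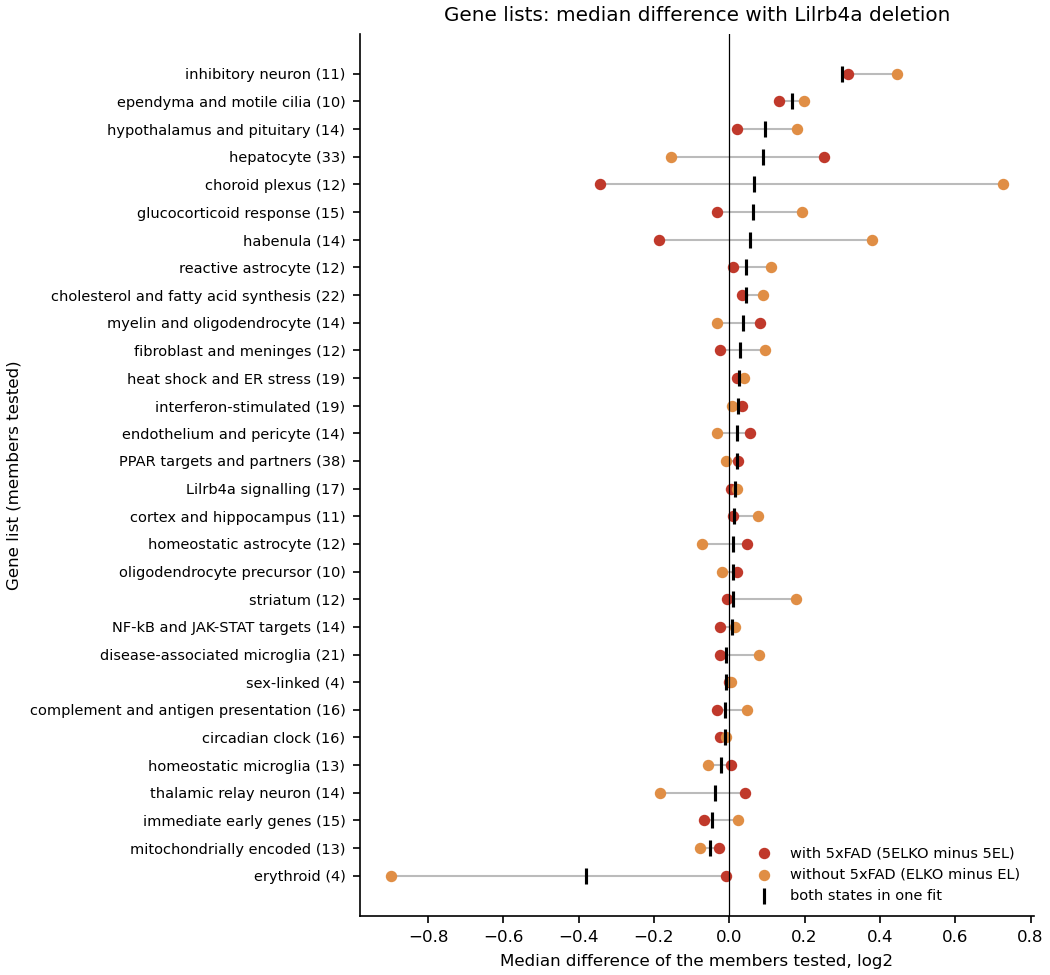
Median difference with Lilrb4a deletion over the tested members of 30 gene lists, in log2, with 5xFAD (red), without 5xFAD (orange) and in the pooled fit (black bar); the number of members is in parentheses. The choroid plexus, hepatocyte and habenula lists have red and orange points on opposite sides of 0, whereas inhibitory neuron and ependymal lists have both points above 0, and the Lilrb4a signalling and PPAR lists lie near 0.

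Genes near the engineered loci on chromosomes 10 and 7 were counted as well. Around Lilrb4a, 0 of 5, 0 of 16, 0 of 78 and 0 of 165 tested genes within 1, 5, 10 and 20 Mb passed the nominal threshold, against 1.73% over all genes. The largest difference within 5 Mb was that of Slc35f1 at 1.19 Mb, 0.18 (SE 0.091; exact permutation p = 0.106), with 0.19 and 0.17 in the states. Around Apoe on chromosome 7, 0 of 45 and 0 of 95 genes within 1 and 5 Mb passed, 3 of 213 (1.41%) within 10 Mb and 6 of 377 (1.59%) within 20 Mb, Erf and Rhpn2 among them. By chromosome the share of genes past the threshold ran from 0.555% on chromosome 12 to 2.44% on chromosome 19.

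**Figure D5:**
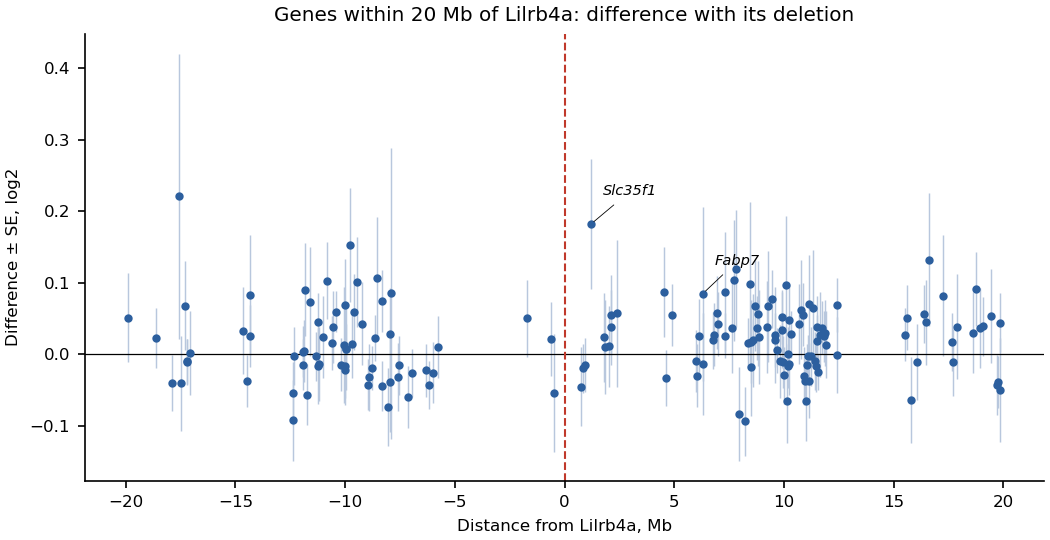
Pooled difference with Lilrb4a deletion (points, with SE as vertical lines) of the 165 tested genes within 20 Mb of Lilrb4a on chromosome 10, by distance from the gene in Mb. No gene passed the nominal threshold; Slc35f1 lies at 0.18 and Fabp7, at 6.29 Mb, at 0.08.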

How the data were processed

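Bulk RNA-seq of 15 thalamic libraries was grouped by the sample labels. According to its methods, reads were trimmed (Trimmomatic 0.39), aligned to GRCm38 (HISAT2 2.2.1) and counted per gene name without regard to strand (featureCounts 2.0.3). The authors deposited log2 values for 29659 genes. The transform is not given in the sources used here, and low genes are drawn together, which understates their differences. Read totals and RNA integrity are reported for 5EL and 5ELKO samples only, so the depth of the EL and ELKO libraries is unknown. The lowest integrity values reported are those of 5ELKO samples. Neither measure entered a fit, and their part in the differences was not tested. A further 5ELKO library of the study's quality table was not analysed here.

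Genes reaching 3.32, or 10 unlogged, in at least 3 of 15 libraries were fitted with limma 3.58.1 (lmFit, eBayes with trend) in R 4.3.3, with 5xFAD as a covariate and Benjamini-Hochberg adjustment over all 15805 genes. The script was tested on simulated data. Single genes were also compared with exact permutation tests that exchanged libraries within each state. Since the labels number libraries within groups and give no litter, p-values measure the spread between these samples. Deviations from the group means correlated between EL and ELKO libraries of the same number ( 0.453, 0.325 and 0.742), so those numbers were taken to pair the libraries, though no source says what they share. Those of 5EL and 5ELKO did not (-0.244 to 0.143).

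Members, lists and tests were chosen with earlier results of these data known. Genes were named if they were Lilrb4a or a relative, among the 10 smallest p in each direction or the 5 largest differences among those moved in both states or of one sign in both, called alike in both separate fits, among the 3 smallest interaction p-values, list members at a nominal p under 0.05, or measured by the study. Others are said to be chosen afterwards. Coordinates are from GENCODE M21 (15286 of the tested genes matched), promoters from RefSeq on GRCm38.p6. Figures were drawn with matplotlib 3.10.9 in Python 3.11.15.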

Additional observations from a re-analysis of the deposited data

Results flagged for a closer look

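Of 146 checks of single values within groups of 4 or 5 libraries, 8 found a library whose gap to its nearest neighbour was an unusually large part of the group's range, where about 1 in 20 such checks is exceeded by chance. In 5ELKO these were Socs1 in replicate 2 at 4.05 (gap 0.864 of the range), Zfp831 in replicate 1 at 5.59 (0.887), Hba-a1 in replicate 4 at 6.29 (0.92) and the mean level of choroid plexus genes in replicate 3 at 6.81 (0.907). In 5EL they were Bhmt in replicate 1 at 4.33 (0.886), Prl in replicate 1 at 3.80 (0.972), Tbr1 in replicate 2 at 7.03 (0.721) and the choroid plexus level in replicate 1 at 8.46 (0.834).

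For 11 named genes the difference with Lilrb4a deletion differed between the 5xFAD states at a nominal limma interaction p under 0.05. None of them passed after adjustment (limma, Benjamini-Hochberg adjusted p = 0.9996 in each), and over all genes 0 passed and 433 (2.74%) reached the nominal threshold. The 11 are no independent set, since a small interaction p was itself a reason for naming a gene. Alb, Apoa1, Apoa2, Apoc3, Cyp2e1, Pck1 and Bhmt also belong to 1 list, that of hepatocyte genes, so a shared sign is no separate evidence from each. The difference was more positive with 5xFAD than without it in all 11. For Alb, the plasma protein albumin, it was so by 2.70, with a nominal p of 0.00164, and in the state without 5xFAD its highest library was EL replicate 1 at 8.59, against 5.69 to 6.23 in the other 5 libraries. Hba-a1 followed at 1.40 (nominal p of 0.0156), Cyp2e1 at 0.706 (0.0203), Apoa1 at 0.604 (0.0469), Apoa2 at 0.512 (0.0173), Pck1 at 0.482 (0.0338) and Bhmt at 0.416 (0.00648). The corresponding values were 0.400 (0.0490) for Cd44, 0.254 (0.000773) for Apoc3 and 0.220 (0.0448) for Arg1. Fzd10, a Wnt receptor, differed by 0.537 (0.000508), at 0.18 with and -0.36 without 5xFAD. No exact test was run for the interaction, so these nominal p-values rest on the limma model.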

How the results depend on the processing

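In all 28 alternatives, 0 genes passed an adjusted p of 0.05 and Lilrb4a stayed lower and past the threshold (-0.16 to -0.12 with 1 library left out). The counts were less stable. Against 160 higher and 114 lower genes at a nominal p under 0.05, no filter on low values gave 358 and 299, and a hepatocyte score as a covariate gave 99 higher. With the EL and ELKO pairs as a replicate block there were 361 and 247, and with every number as a replicate block 429 and 243. Against 52 and 27 genes moved in both states, these blocks gave 108 and 44, and 130 and 41 (79 and 68 of the 79 retained), and the hepatocyte covariate gave 28 higher. With 5EL replicate 1, EL replicate 1, ELKO replicate 1 and ELKO replicate 2 left out together, an alternative chosen after seeing the data, there were 87 and 65, with 30 of the 79 retained. The 2 genes called alike in both separate fits became 12 with no filter, 0 with a mean of at least 5 or with no trend, 18 with Xist as a covariate, 17 and 29 under the replicate blocks, 1 with libraries recentred, 4 without 5EL replicate 1 and ELKO replicate 2, and 7 without the 4 libraries. Leaving out 1 library gave 101 to 329 higher and 82 to 247 lower genes, 31 to 145 and 23 to 55 in both states, and 0 to 11 in both separate fits. Of the 49 named genes at a nominal p under 0.05, 18 passed in every alternative and all 49 kept their sign. Since the 49 were chosen by that p and the alternatives share most libraries, a kept sign was likely from the start. The state difference of Apoa1 reversed with the hepatocyte covariate, to -0.022 (nominal p of 0.889). The cause of these shifts was not tested. The number of libraries and the unknown transform limit what small or low-expressed differences can be read. The counts of list members under the pair block were likewise chosen after seeing the data.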

Other observations

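Of the remaining lists of glial, vascular and stress genes, few held a gene past the nominal threshold. Among 19 interferon-stimulated genes 0 passed, with a median difference of 0.02, and among 15 immediate early genes 0 passed, with a median of -0.05. The 14 myelin and oligodendrocyte genes had a median of 0.04, and 13 of them had a positive pooled difference, but 5 of the 14 had the same sign in both states and 0 passed. Among 22 genes of cholesterol and fatty acid synthesis 0 passed, with a median of 0.04 and 15 of 22 of the same sign. The 13 mitochondrially encoded genes had a median of -0.05, the 16 clock genes of -0.01 and the 15 glucocorticoid response genes of 0.06, with 0 past the threshold in each. Endothelial and pericyte genes (14 tested) and fibroblast and meningeal genes (12 tested) had medians of 0.02 and 0.03, and 0 passed in either list. Over all genes the median was 0.00 and 1.73% passed.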
